A study of Homo sapiens with 6 samples.

Results

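The genes described here encode the proteins of the mitochondrial ribosome. They were taken as the genes whose symbol in the deposited merged count table begins with MRPL or MRPS followed by a number and, in some, a letter from A to C. The rule found 78 genes among the 24635 identifiers of that table that carry counts. Of these, 26 belong to the small subunit of the ribosome and 51 to the large subunit. The last, MRPS36, was named as a ribosomal protein and is now assigned to the 2-oxoglutarate dehydrogenase complex. MRPS30 and MRPS18A carry small-subunit names and sit in the large subunit, and they were counted there. All 78 had enough reads to be tested.

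RNA-seq was performed on 6 libraries of HEK293 cells, a human embryonic kidney line whose sample labels give the derivative HEK293T. Of these, 3 came from cells expressing a control short hairpin RNA (sh-control) and 3 carried the label of a hairpin against RREB1 (sh-RREB1), a zinc finger transcription factor. All cells were of this cell line and were grown in the same medium, and every library came from cells with a hairpin. By the methods of the study, hairpins were delivered by lentivirus and stable lines were kept under neomycin selection. The sources do not say which libraries came from separate cultures, so each p-value measures only the spread between these libraries, which may be technical.

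RREB1 itself, the targeted gene, was measured first. Its level was 27.2, 25.2 and 26.6 CPM in the 3 sh-control libraries against 23.7, 24.6 and 23.2 CPM in those labelled sh-RREB1, where CPM is the reads of a gene per 1000000 reads on genes after TMM scaling. The groups did not overlap, and the log2 fold change of -0.14 ± 0.13 (SE) did not pass the test (edgeR quasi-likelihood test, adjusted p = 0.486). After a correction for GC content and length, described further on, it was -0.36 (edgeR adjusted p = 0.0534). Directions below are therefore those of the libraries labelled sh-RREB1. The sh-control libraries held 23362197 to 33044061 reads on genes and the sh-RREB1 libraries 12257054 to 26145878. In sh-RREB1 replicate 3, which had the fewest, 52.1% of aligned reads mapped to several positions, against 3.66% to 7.63% in the others. Of the kidney and neuronal markers listed for the line, VIM, NEFM, NEFL, KRT8 and KRT18 were above 10 CPM in every library, LHX1 was at 1.22 to 2.42 CPM, and PAX2 stayed below 0.5 CPM. VIM and NEFL rose in sh-RREB1, by 0.75 and 0.89 on the log2 scale (edgeR adjusted p = 0.00391 and 0.00372). Of the markers of other cells, PTPRC and HBB had too few reads to test and ALB and PECAM1 stayed below 1 CPM. The fibroblast marker COL1A1 was at 0.348 to 0.686 CPM in sh-control, against 0.952 to 2.64 CPM in sh-RREB1 (edgeR adjusted p = 0.0132), and its part in the results was not tested.

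The mitochondrial ribosome translates the mRNAs that mitochondrial DNA encodes, which specify core subunits of the respiratory chain and of ATP synthase. All its proteins are encoded in the nucleus, made in the cytosol and imported, while its ribosomal RNAs come from mitochondrial DNA. The protein genes are spread over the genome, here over 21 chromosomes, and the ribosome needs them in defined proportions. The small subunit holds the mRNA and the decoding site, and the large subunit holds the peptidyl transferase centre and the exit tunnel.

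The starts of these genes were described first, from the RefSeq promoter windows of GRCh38.p14, which run from 250 bases before to 50 bases after the start. A window was found for 69 of the 78 genes, and not for MRPL2, MRPL10, MRPL13, MRPL15, MRPL21, MRPL23, MRPL35, MRPS28 and MRPS36. Cores of sites for 4 factors were searched on both strands: GCATGCGC for NRF1, CCGGAAG for ETS factors such as GABPA, AANATGGCG for YY1, and CCCCAAAC for RREB1. NRF1, GABPA and YY1 are known regulators of nuclear genes for mitochondrial proteins. The ETS core was in 29 of the 69 windows (42.0%), against 10.7% of all 27305 windows and 19.5% of the 10540 windows of genes tested with a mean log2 CPM above 0. The YY1 core was in 18 (26.1%), against 3.37% and 7.13%, and the NRF1 core in 6 (8.70%), against 3.27% and 5.67%. The RREB1 core was in 2 (2.90%), against 1.77% and 1.59%. None of the 4 cores was in 24 of the windows. Motif matches are descriptions of the letters and not of binding.

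The windows of 3 genes are given here, since MRPL4 had the clearest increase, MRPL33 the lowest fold change, and MRPL52 the only window with an NRF1, an ETS and a YY1 core. They lie at chr19:10251701-10252000 (MRPL4), chr2:27771469-27771768 (MRPL33) and chr14:22829637-22829936 (MRPL52), all on the plus strand of GRCh38.p14, and each spans the end of the region before the gene and its first transcribed bases. Capitals mark the cores found.
MRPL4: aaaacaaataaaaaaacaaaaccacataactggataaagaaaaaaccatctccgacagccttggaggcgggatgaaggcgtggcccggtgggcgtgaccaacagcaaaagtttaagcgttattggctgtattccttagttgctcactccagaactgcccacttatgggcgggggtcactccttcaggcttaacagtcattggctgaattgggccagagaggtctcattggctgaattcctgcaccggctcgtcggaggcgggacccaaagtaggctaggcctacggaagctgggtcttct
MRPL33: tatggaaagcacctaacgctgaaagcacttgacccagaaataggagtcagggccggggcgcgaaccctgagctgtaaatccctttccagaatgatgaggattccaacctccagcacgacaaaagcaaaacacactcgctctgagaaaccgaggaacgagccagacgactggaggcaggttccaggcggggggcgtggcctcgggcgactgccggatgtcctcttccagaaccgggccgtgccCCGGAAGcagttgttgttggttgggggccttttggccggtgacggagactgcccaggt
MRPL52: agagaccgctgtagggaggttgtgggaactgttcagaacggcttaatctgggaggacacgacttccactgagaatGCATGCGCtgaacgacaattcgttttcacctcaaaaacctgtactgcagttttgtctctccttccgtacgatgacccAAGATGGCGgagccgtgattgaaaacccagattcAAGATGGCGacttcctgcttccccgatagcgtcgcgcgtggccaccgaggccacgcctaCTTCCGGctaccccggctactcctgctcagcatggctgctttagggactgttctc
The MRPL4 window held none of the 4 cores. In MRPL33, the ETS core ended 2 bases before the start, and in MRPL52 the ETS core, on the other strand, spanned the start, with 2 YY1 cores and the NRF1 core farther upstream. Windows with the ETS core belonged to 0 of the 6 genes that were higher in sh-RREB1 by the test given below (5 without MRPL12), 6 of the 9 that were lower and 23 of the 54 that were neither. The median GC content of these windows was 67.8%, 59.3% and 60.3%. With the correction described further on, the higher genes MRPL30, MRPL52 and MRPS23 had the ETS core. The windows of MRPL4, MRPL42, MRPL55, MRPS11, MRPS17, MRPS25 and MRPS30, also higher with it, did not. Of the genes lower with it, MRPL16, MRPL20, MRPL33, MRPL38, MRPL40, MRPL43, MRPL48, MRPL51, MRPS26 and MRPS34 had the ETS core. The windows of MRPL36 and MRPL39, also lower with it, did not, and MRPL21 had no window. These differences were not tested.

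Many of these genes share their start region with a neighbour. A protein-coding gene on the other strand started within 1000 bases of 18 of the 78 (23.1%), against 11.3% of the 14596 protein-coding genes tested. In MRPL46 and MRPS11, a pair of mitochondrial ribosomal genes, the starts are 63 bases apart, MRPL49 and the cytosolic ribosomal gene FAU are 6 bases apart, and MRPL36 and the complex I gene NDUFS6 are 41 bases apart. For the last of these pairs, MRPL36 stood at 18.4, 29.1 and 24.8 CPM in sh-control, against 27.9, 33.0 and 32.1 CPM in sh-RREB1 (log2 fold change 0.36 ± 0.18, adjusted p = 0.203 by edgeR), while NDUFS6 rose by 1.53 on the log2 scale (adjusted p = 0.0123 by edgeR). After the correction for GC content described further on, the log2 values were -0.58 and 1.23. The difference between the partners was not tested.

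The summed level of the 78 genes was almost the same in both groups. It was 4594, 5475 and 5303 CPM in sh-control, against 4878, 5360 and 5049 CPM in sh-RREB1, or 0.452% to 0.536% of the reads on genes. The means were 5124 ± 467 and 5096 ± 244 CPM (SD, n = 3 each). The log2 ratio was -0.0049, and the exact two-sided permutation test over libraries gave p = 1, where 3 against 3 libraries cannot go below 0.1. The lowest value was that of sh-control replicate 1, and the groups overlapped. Small-subunit genes summed to 1775 ± 178 CPM in sh-control, against 1793 ± 125 CPM in sh-RREB1 (SD, n = 3; exact permutation p = 0.8), and large-subunit genes to 3293 ± 290 and 3255 ± 124 CPM (SD, n = 3; exact permutation p = 1). In bulk RNA, fewer cells of a kind and less RNA per cell cannot be told apart.

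**Figure D1:**
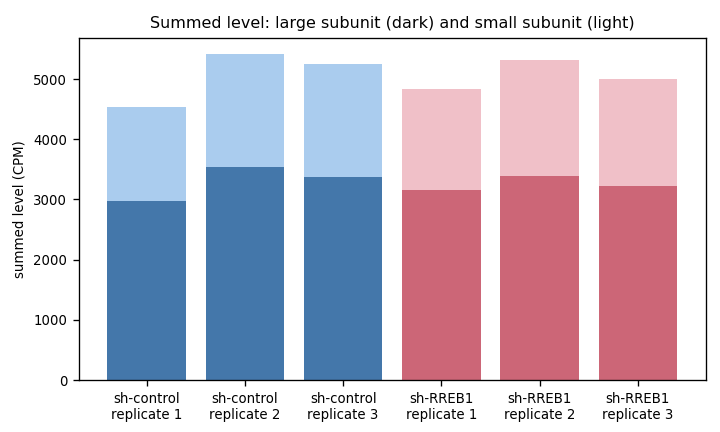
Summed level in CPM (bars, from 0) in each of the 6 libraries, with the large subunit in the dark part and the small subunit in the light part, MRPS36 left out. The 3 sh-RREB1 libraries lie within the range of the 3 sh-control libraries, and sh-control replicate 1 is the lowest.

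Between genes, levels per kilobase of exon spanned a wide range. The highest in sh-control were MRPL51 at 143 ± 23.9 CPM per kilobase, MRPL39 at 95.0 ± 2.99 and MRPL3 at 82.2 ± 2.30 (SD, n = 3). The gap between MRPL39 and MRPL3 exceeded their SDs. The lowest were MRPL12 at 0.0103 ± 0.0178, MRPS24 at 0.315 ± 0.0674 and MRPL38 at 0.813 ± 0.307 CPM per kilobase (SD, n = 3). A gene on the same strand covers 69.5% of the exonic bases of MRPL12, 23.2% of those of MRPS24 and 41.1% of those of MRPL38, and reads that overlap more than 1 gene are counted for none. The median log2 CPM was 2.20 over the 9 genes with over 20% same-strand overlap, against 6.01 over the 69 others. Single genes varied, with MRPL53 (72.8%) at 6.73 CPM per kilobase, MRPL33 (21.1%) at 52.3, and MRPL4, with no such overlap, at 1.49. The part of overlap in the levels was not tested. MRPL12, which forms the flexible stalk that binds translation factors, had 1 read in all 3 sh-control libraries together and 16 in sh-RREB1. The ratio of its reads, scaled for depth, was 21.9 with an exact conditional interval of 3.40 to 917 (95%, counting error only), so its fitted fold change is not printed below. It had enough reads for the test only through sh-RREB1, and the counts that hold it are also given without it. The exon lengths were those of all transcripts in Gencode 44, so genes with long rare exons, such as MRPS22 with 16385 bases, read low on this scale. The study gives an earlier release for its counts, so some of these exons may not have been counted.

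The comparison of the groups asks which genes differ with the hairpin label. Of the 78, only MRPL4 was called at the thresholds of the study (adjusted p under 0.01 with a change of more than 1 on the log2 scale in either direction), where 794 of the 23304 genes tested (3.41%) were called. At an adjusted p below 0.05 with no minimum fold, 8 of the 78 were higher (7 without MRPL12) and 11 lower, and 59 were neither, against 10.8% higher and 8.81% lower among all genes tested. These shares, 10.3% and 14.1% of the 78, are near those of all genes. The median log2 fold change was 0.017 over the 78 and 0.014 over all genes. The values of the groups did not overlap for 35 of the 78 genes (44.9%), 18 of them higher in sh-RREB1 and 17 lower, against 41.1% of all genes. All genes include many of low level. Among the 14332 with a mean log2 CPM above 0, 686 were called, 14.7% were higher, 13.2% were lower, and 52.8% did not overlap. In the small subunit 3 genes rose and 3 fell, with a median of 0.0042, and in the large subunit 5 were higher (4 without MRPL12) and 8 fell, with a median of 0.092.

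**Figure D2:**
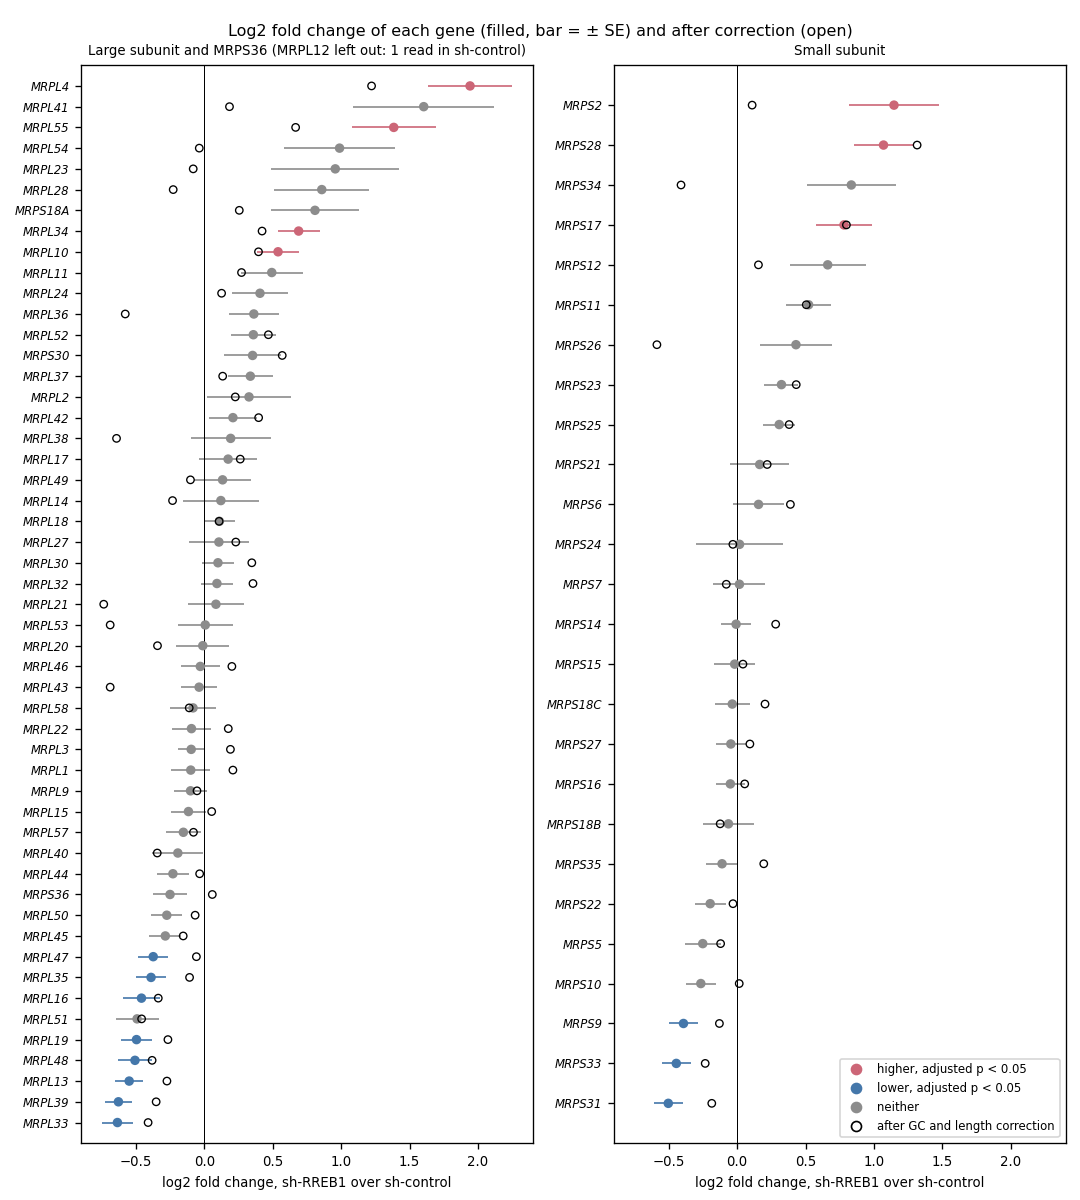
Log2 fold change of 77 genes (sh-RREB1 over sh-control; bars are ± SE; red higher, blue lower, grey neither at an adjusted p below 0.05 by edgeR), with the value after a correction for GC content and length as open circles. MRPL12 is left out. MRPL4, MRPL55, MRPS28 and MRPS17 stay well above 0 after the correction, and MRPS2 moves from 1.15 to 0.11.

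Because the fold changes followed GC content, they are given with and without a correction for it. Across the 78 genes, Spearman's rho between log2 fold change and exonic GC content was 0.65, beside 0.59 across the 14332 genes tested with a mean log2 CPM above 0. The points share 6 libraries, and genes are not independent replicates. The 26 members of highest GC content (52.0% to 66.7%) had 0.52 as their median log2 fold change, with 6 higher (5 without MRPL12) and 0 lower by edgeR (0 at an unadjusted p under 0.05 and 0 by DESeq2 were lower). The 26 of lowest GC content (35.0% to 42.5%) had a median of -0.10, with 1 higher and 8 lower. Every sh-RREB1 library had a higher median deviation from the mean of each gene (log2 CPM) than every sh-control library in the 26 of highest GC content, at 0.14, 0.53 and 0.22 against -0.83, -0.043 and 0.048. In the 26 of lowest GC content every sh-RREB1 library was lower, at -0.00013, -0.21 and -0.067 against 0.085, 0.11 and 0.067. In those of highest GC content, sh-control replicate 1 was the lowest of the 6 libraries for 24 genes, at a median of 0.502 of the mean of the other control libraries, and sh-RREB1 replicate 2 was the highest for 20. Whether GC content itself produced these differences was not tested.

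**Figure D3:**
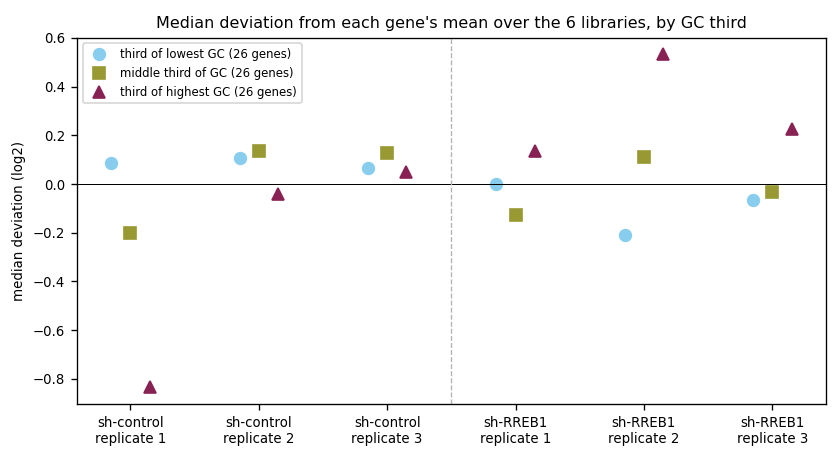
Median over 26 genes each of the deviation (log2 CPM minus the gene's mean over the 6 libraries) for the genes of lowest, middle and highest GC content, by library. In the genes of highest GC content sh-control replicate 1 stands lowest, at -0.83, and sh-RREB1 replicate 2 highest, at 0.53.

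A smooth trend of each library on exonic GC content and length, fitted over those 14332 genes, was then removed in the fit. After it, rho was -0.17. Across the 78 genes, 2 were called at the thresholds of the study, MRPL4 and MRPS28, against 3.02% of all genes, and 12 were higher and 13 lower at an adjusted p below 0.05, against 10.4% and 11.7%. The median log2 fold change was 0.048. No gene that passed in either fit passed in the opposite direction in the other. MRPL4, MRPL10, MRPL55, MRPS17 and MRPS28 were higher in both fits, and MRPL16, MRPL33, MRPL39 and MRPL48 were lower in both. MRPL12, MRPL34 and MRPS2 passed as higher without the correction and did not pass with it, and the same held for MRPL13, MRPL19, MRPL35, MRPL47, MRPS9, MRPS31 and MRPS33 as lower. With it, 7 more were higher (MRPL30, MRPL42, MRPL52, MRPS11, MRPS23, MRPS25, MRPS30) and 9 more lower (MRPL20, MRPL21, MRPL36, MRPL38, MRPL40, MRPL43, MRPL51, MRPS26, MRPS34). The calls with it still differed by GC content. Of the 26 of highest GC content, 3 were higher and 8 lower, with a median of -0.059. Of the 26 of lowest GC content, 4 were higher and 1 lower, with a median of 0.13.

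**Figure D4:**
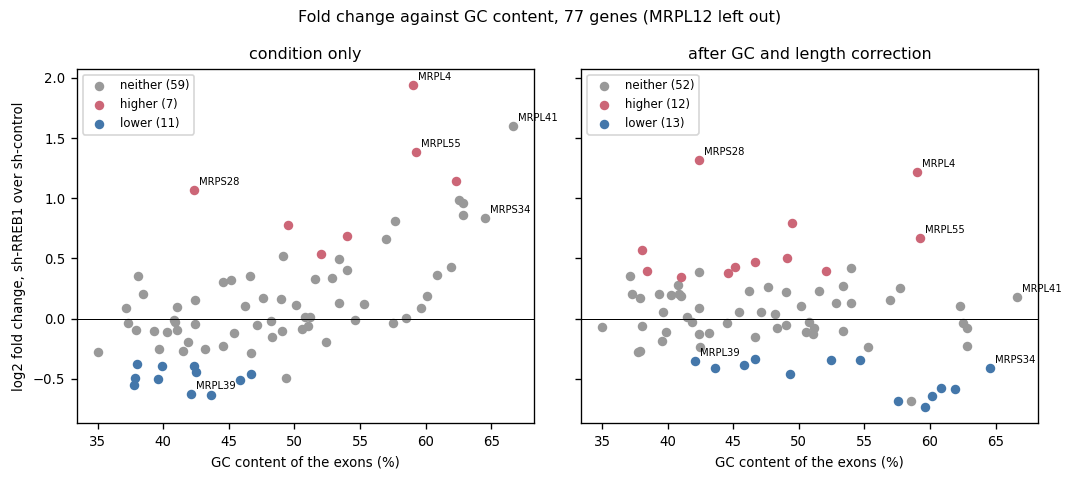
Log2 fold change (sh-RREB1 over sh-control) against the GC content of the exons in percent for 77 genes, without (left) and with (right) the correction for GC content and length, coloured by the call at an adjusted p below 0.05 (edgeR). On the left the values climb with GC content, and on the right MRPL4 and MRPS28 stand above the rest.

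Among the large-subunit genes that rose, MRPL4 stood out. It encodes a protein of the universal ribosomal core that lines the exit tunnel. The gene (ENSG00000105364) lies at chr19:10251901-10260055 on GRCh38. It stood at 3.13, 7.40 and 7.70 CPM in sh-control, against 21.7, 26.8 and 21.9 CPM in sh-RREB1. Every sh-RREB1 library was above every sh-control library, and sh-control replicate 1 was the lowest. The fold was 3.84 (log2 fold change 1.94 ± 0.31 (SE), edgeR adjusted p = 0.00569), and after the correction the log2 value was 1.22 ± 0.13 (edgeR adjusted p = 0.000114).

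The next large-subunit gene was MRPL55, at 5.92, 13.2 and 14.5 CPM in sh-control, against 25.1, 34.6 and 28.2 CPM in sh-RREB1. Its groups did not overlap, and its log2 fold change was 1.38 ± 0.31 (edgeR adjusted p = 0.0167) and 0.67 ± 0.12 after the correction (edgeR adjusted p = 0.00234). MRPL10, the protein at the base of the stalk, was at 31.3, 39.9 and 38.4 CPM in sh-control, against 48.4, 62.0 and 48.8 CPM in sh-RREB1. It rose 1.45-fold (log2 fold change 0.54 ± 0.15, edgeR adjusted p = 0.0406), and by 0.40 ± 0.09 on the log2 scale after the correction. MRPL11, the other protein beside the stalk, was at 31.4, 54.1 and 57.8 CPM against 58.1, 79.4 and 64.2 CPM and did not pass the test (log2 fold change 0.49 ± 0.23, edgeR adjusted p = 0.161). The lowest sh-RREB1 value of MRPL11 was just above the highest control value. MRPL41 was at 0.870, 5.04 and 6.17 CPM in sh-control, against 11.5, 14.3 and 11.3 CPM in sh-RREB1. Its groups did not overlap either, and its log2 fold change of 1.60 ± 0.51 missed the threshold (edgeR adjusted p = 0.0582) and was 0.18 ± 0.21 after the correction.

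**Figure D5:**
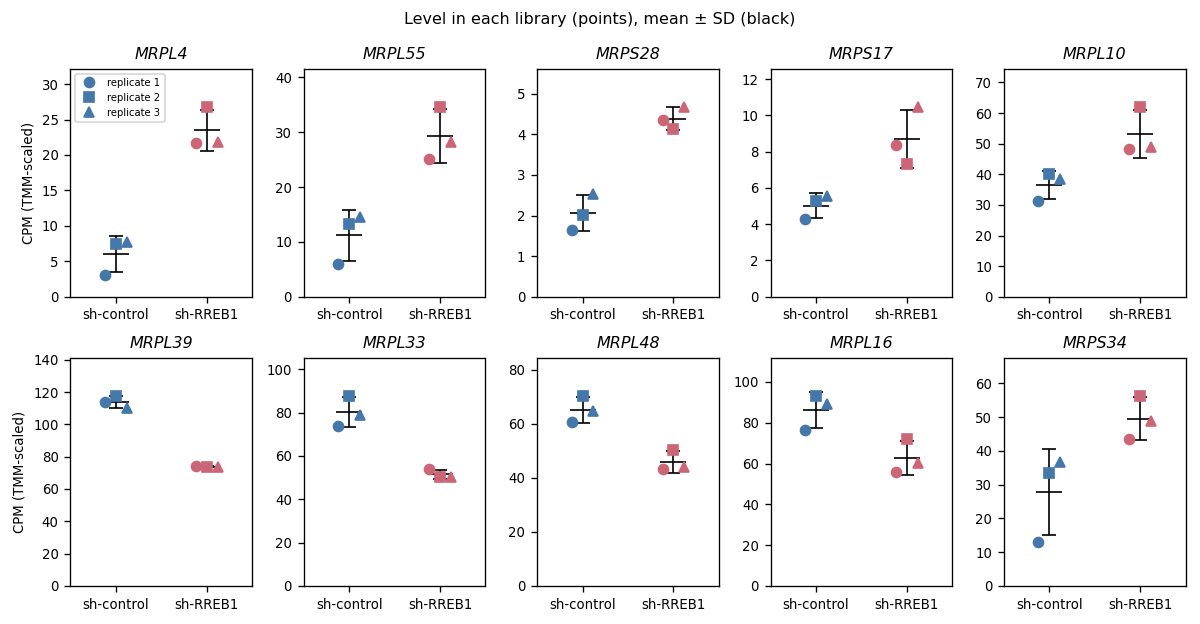
Level in CPM (linear axes from 0) of 10 genes in each library (points, with a shape for each replicate) with the mean and SD (n = 3) of each group in black. The groups do not overlap in any panel. MRPL39 has the tightest values, and MRPS34 has its lowest value in sh-control replicate 1, at 13.1 CPM.

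Of the small-subunit genes that rose, MRPS28 and MRPS17 did so in both fits. MRPS28, the mitochondrial relative of the bacterial S1 protein, was at 1.65, 2.02 and 2.52 CPM in sh-control, against 4.35, 4.13 and 4.68 CPM in sh-RREB1, with no overlap. Its log2 fold change was 1.07 ± 0.21 (edgeR adjusted p = 0.0117), and 1.31 ± 0.20 after the correction (edgeR adjusted p = 0.000858). MRPS28 has a low GC content (42.4%), unlike MRPL4 (59.0%) and MRPL55 (59.3%). A gene model on the same strand covers 35.8% of its exons and has 0 reads in all 6 libraries. Reads that overlap both are counted for neither, so those 0 reads cannot show the level of that model. MRPS17 was at 4.26, 5.26 and 5.55 CPM in sh-control, against 8.34, 7.30 and 10.5 CPM in sh-RREB1 (log2 fold change 0.78 ± 0.20, edgeR adjusted p = 0.0284; 0.80 ± 0.17 after the correction). NIPSNAP2 and another gene model on the same strand together cover 25% of the exons of MRPS17. MRPS2 was at 10.5, 19.7 and 28.2 CPM in sh-control, against 33.4, 53.7 and 42.5 CPM in sh-RREB1. It rose by 1.15 on the log2 scale (edgeR adjusted p = 0.0391), and after the correction its value was 0.11 ± 0.12 (edgeR adjusted p = 0.580).

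The 11 genes that fell had log2 fold changes from -0.63 to -0.37. MRPL39 (ENSG00000154719, chr21:25585656-25607517) was at 114, 118 and 110 CPM in sh-control, against 74.2, 73.4 and 73.5 CPM in sh-RREB1. The 3 libraries of each group lay close together, far from the other group. Its log2 fold change was -0.63 ± 0.10 (edgeR adjusted p = 0.00544), a decrease of 35.3%, and -0.35 ± 0.08 after the correction (edgeR adjusted p = 0.00966). MRPL33, a small protein of the large subunit that bacteria share, was at 74.0, 87.6 and 78.7 CPM in sh-control, against 54.0, 50.3 and 50.4 CPM in sh-RREB1 (log2 fold change -0.63 ± 0.11, edgeR adjusted p = 0.00854; -0.41 ± 0.09 after the correction). It shares 21.1% of its exons with BABAM2 on the same strand.

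MRPL48 was at 60.5, 70.2 and 64.6 CPM in sh-control, against 43.1, 50.3 and 44.0 CPM in sh-RREB1, a decrease of 29.6% (edgeR adjusted p = 0.0228). MRPL16, another protein of the universal core, was at 76.3, 93.1 and 89.3 CPM against 56.0, 71.8 and 60.4 CPM, a decrease of 27.3% (edgeR adjusted p = 0.0444). Neither overlapped between groups, and both remained lower after the correction, by -0.38 ± 0.09 and -0.34 ± 0.10 on the log2 scale. The other 7 that were lower without the correction, MRPL13, MRPL19, MRPL35, MRPL47, MRPS9, MRPS31 and MRPS33, had log2 fold changes from -0.55 to -0.37 without it and from -0.27 to -0.058 with it. All 7 have a GC content of 42.5% or less.

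MRPS12, MRPS11 and MRPS7, listed for the decoding site, head and platform of the small subunit, did not pass the test without the correction. MRPS12, part of the decoding site, was at 9.35, 18.8 and 19.7 CPM in sh-control, against 22.2, 30.6 and 22.9 CPM in sh-RREB1 (log2 fold change 0.66 ± 0.28, edgeR adjusted p = 0.127). MRPS11 was at 32.6, 42.2 and 45.0 CPM against 48.7, 65.9 and 57.6 CPM (0.52 ± 0.17, edgeR adjusted p = 0.0579; 0.50 ± 0.11 after the correction, edgeR adjusted p = 0.0075), with no overlap. For MRPS7 the log2 fold change was 0.016 ± 0.19 (edgeR adjusted p = 0.965). In the universal core of the large subunit, MRPL2 and MRPL3 had log2 fold changes of 0.33 ± 0.31 and -0.096 ± 0.094, with edgeR adjusted p = 0.503 and 0.522, while MRPL4 rose.

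The paralogs MRPS18A, MRPS18B and MRPS18C, of which A sits in the large subunit and B and C in the small subunit, had different values. MRPS18A was at 10.5, 24.9 and 27.9 CPM in sh-control, against 30.7, 45.0 and 35.4 CPM in sh-RREB1 (log2 fold change 0.81 ± 0.32, edgeR adjusted p = 0.114). MRPS18B (-0.064 ± 0.19) and MRPS18C (-0.036 ± 0.13) had edgeR adjusted p = 0.847 and 0.875. None of the paralogs passed the test, and the differences between them were not tested.

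MRPS22, MRPS16 and MRPL44, which are among the genes known from inherited defects of mitochondrial translation, did not pass the test in either fit. MRPS2 and MRPS28, also known from such defects, passed as given above. MRPS22 and MRPS16 had log2 fold changes of -0.20 ± 0.11 and -0.050 ± 0.10, with edgeR adjusted p = 0.257 and 0.784, and MRPL44 had -0.23 ± 0.12 (edgeR adjusted p = 0.200). MRPL45, which holds the ribosome at the inner membrane, was lower in every sh-RREB1 library than in every sh-control library, at -0.28 ± 0.12 (edgeR adjusted p = 0.118). MRPS34 was at 13.1, 33.4 and 36.6 CPM in sh-control, against 43.5, 56.2 and 48.7 CPM in sh-RREB1. Its sign depended on the correction, with 0.83 ± 0.33 without it (edgeR adjusted p = 0.107) and -0.41 ± 0.10 with it (edgeR adjusted p = 0.0132). MRPL36 likewise moved from 0.36 ± 0.18 to -0.58 ± 0.15 (edgeR adjusted p = 0.203 and 0.0173). MRPS30 had 0.35 ± 0.21 without the correction and 0.57 ± 0.11 with it (edgeR adjusted p = 0.279 and 0.0032). MRPS36, in the 2-oxoglutarate dehydrogenase complex, was lower in every sh-RREB1 library and did not pass (-0.25 ± 0.12, edgeR adjusted p = 0.182).

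Leaving out a library changed these calls. Without sh-control replicate 2, and likewise without sh-RREB1 replicate 3, MRPL4 was the only gene of the 78 that remained higher and MRPL39 the only one that remained lower at an adjusted p below 0.05. Without sh-control replicate 3 there were 7 higher and 7 lower, and without sh-RREB1 replicate 1 there were 3 and 5. The shares of all genes fell as well. In these 4 fits they were 3.31% higher and 2.82% lower when sh-control replicate 2 was left out, 4.47% and 2.22% for sh-RREB1 replicate 3, 10.3% and 6.72% for sh-control replicate 3, and 7.20% and 6.11% for sh-RREB1 replicate 1. Without sh-control replicate 1, MRPL4, MRPL41 and MRPL55 were called at the thresholds of the study. When any other library was left out, MRPL4 no longer passed the 0.01 threshold, with edgeR adjusted p from 0.0105 to 0.0347. With the correction, MRPL4 and MRPS28 were called at the thresholds of the study in all 6 fits that each left out 1 library, while MRPL39 no longer passed the 0.05 threshold without sh-control replicate 2 (edgeR adjusted p = 0.0510) or sh-RREB1 replicate 3 (edgeR adjusted p = 0.0663).

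Other proteins of the pathway were read from listed genes. Their counts are read beside the 10.8% higher and 8.81% lower of all genes without the correction, and 10.4% and 11.7% with it. Of 5 further proteins of the mitochondrial ribosome that do not carry an MRP name, 2 rose and 1 fell, with a median of -0.026, and 1 was higher and 0 lower with the correction. GADD45GIP1, a large-subunit protein, was at 2.09, 6.99 and 10.7 CPM in sh-control, against 24.9, 37.9 and 29.7 CPM in sh-RREB1 (log2 fold change 2.21 ± 0.47, edgeR adjusted p = 0.0141; 1.45 after the correction). AURKAIP1, a small-subunit protein, was at 2.61, 9.68 and 13.2 CPM against 28.7, 37.8 and 26.8 CPM (1.87 ± 0.46, edgeR adjusted p = 0.0244; 0.36 after the correction). PTCD3, of the small subunit, fell from 242, 227 and 222 CPM to 184, 175 and 173 CPM (-0.38 ± 0.10, edgeR adjusted p = 0.0264; -0.17 after the correction).

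Of 24 assembly factors, 3 rose (MRM1, MTG2, NGRN) and 1 fell (FASTKD2), with a median of -0.0056. With the correction 2 were higher (MTG2 and NGRN) and 4 lower (NOA1, DDX28, MTG1 and MRM3), and the log2 value of MRM1 went from 1.39 to 0.29 (edgeR adjusted p = 0.282). NGRN, needed for the large ribosomal RNA, was at 19.8, 21.9 and 22.4 CPM in sh-control, against 42.7, 33.7 and 39.7 CPM in sh-RREB1 (0.85 ± 0.14, edgeR adjusted p = 0.00691; 0.86 after the correction). Of 13 translation factors measured, 0 rose and 4 fell by edgeR (GFM1, GFM2, MTIF2 and MTIF3, the elongation factor G1, a recycling factor and both initiation factors), with a median of -0.25. At an unadjusted p under 0.05, 1 of the 13 was higher, and DESeq2 called 1 higher at an adjusted p below 0.05. With the correction 1 was higher (MTRF1, at 0.43, edgeR adjusted p = 0.0101) and 4 were lower, with MTRFR in place of GFM1 (edgeR adjusted p = 0.00817 and 0.0876). GFM2 was at 181, 187 and 167 CPM in sh-control, against 102, 112 and 104 CPM in sh-RREB1 (-0.75 ± 0.10, edgeR adjusted p = 0.00377; -0.46 after the correction). The elongation factor TUFM was at 59.1, 129 and 154 CPM against 184, 267 and 202 CPM and did not pass (0.93 ± 0.31, edgeR adjusted p = 0.0636).

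Of 14 regulators, 3 rose (POLRMT, the mitochondrial RNA polymerase; ESRRA; and PPRC1) and 2 fell (GABPB1 and LRPPRC), with a median of -0.028. With the correction 1 was higher (PPRC1) and 0 were lower, and the log2 value of POLRMT went from 1.69 to 0.21 and that of ESRRA from 1.46 to 0.23 (edgeR adjusted p = 0.298 and 0.219). The factors NRF1, GABPA and YY1, whose cores were searched in the windows, did not pass the test, with log2 fold changes of -0.26 ± 0.16 for NRF1, -0.22 ± 0.18 for GABPA and 0.0021 ± 0.13 for YY1, and adjusted p = 0.291, 0.439 and 0.994 by edgeR. Of 85 cytosolic ribosomal protein genes, 10 rose and 10 fell, with a median of -0.049 and 1 called at the thresholds of the study, and with the correction 14 were higher and 7 lower. The median over all genes was 0.014.

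Named pseudogenes exist for 36 of the 78 genes, 79 in all, and reads that map to several positions were not counted. By Gencode 44, same-strand overlap above 20% of the exons was found for 9 of the 78. These were MRPL2, MRPL12, MRPL33, MRPL38, MRPL53, MRPS5, MRPS17, MRPS24 and MRPS28. Their values are less certain, but the overlapping genes of MRPL2 and MRPS5 are not among the identifiers counted. Among the 69 others, 5 rose and 10 fell, and 10 were higher and 11 lower with the correction, against 10.8% and 8.81% of all genes without it and 10.4% and 11.7% with it.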

How the data were processed

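RNA-seq was measured in 3 sh-control and 3 sh-RREB1 libraries, grouped by their labels. The authors deposited raw counts per gene for each library, made with STAR on hg38 from a stranded total RNA kit, and a merged table of the same counts. The column on the strand of the gene was used, and reads that map to several positions or overlap more than 1 gene were not counted. Identifiers without a symbol were left out, and where several shared a symbol, the one with the most reads was kept. The 23304 genes with at least 10 reads in total were tested.

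The groups were compared with the edgeR 4.0.16 quasi-likelihood test (R 4.3.3, TMM scaling, condition only, Benjamini-Hochberg adjustment over all genes tested). Columns of log2 fold changes are sh-RREB1 minus sh-control. Reads on genes per library ranged from 12257054 to 33044061, and intervals from counts cover counting error only. For the GC and length correction, natural splines with 5 degrees of freedom on exonic GC content and log2 length were fitted in each library to the genes whose mean log2 CPM exceeded 0, and the fitted trend entered the model as an offset. Exon models, for lengths, GC content and overlaps, came from Gencode 44 on GRCh38, a later release than the study gives for its counts. Promoters came from RefSeq (GRCh38.p14). Libraries of a group differed beyond sampling noise (chi-square per degree of freedom at least 5.17) and were counted separately.

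The members and lists were chosen with earlier results of these data known. A few of the listed genes, and the list of mitochondrial aminoacyl-tRNA synthetases, are not reported here. Named were the members called, the 5 highest and 5 lowest in fold change, the 3 highest and 3 lowest in level per kilobase, members with listed roles, and any whose call changed direction with the correction. MRPL16, MRPL52, MRPS17 and others given for their calls in the corrected fit were named after their values were seen. Alternatives were DESeq2 1.42.0, other scalings and filters, counts of both strands, the merged table, the correction, the replicate block, and leaving out each library.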

Additional observations from a re-analysis of the deposited data

How the results depend on the processing

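The number of genes called at the thresholds of the study, 1, was 4 with DESeq2, 5 with a minimum of 1 read, 2 with filterByExpr, 0 with both strands counted, 2 with the merged table and 2 with the GC and length correction. It ranged from 0 to 3 when libraries were left out, with or without the correction. The 8 genes higher at an adjusted p below 0.05 became 15 with a minimum of 1 read, where 9.58% of all genes were higher. With a library left out the 8 higher became 1 to 14 and the 11 lower became 1 to 17. The median log2 fold change of 0.017 ranged from -0.093 to 0.079 with a library left out, and with other settings its sign changed with upper-quartile scaling, at -0.075. The log2 ratio of the summed level, -0.0049, was 0.054 with filterByExpr, 0.0081 with both strands and 0.027 with the correction, and -0.11 to 0.066 with a library left out. None of these ratios could pass the test with 3 libraries a group. Over all genes, 794 of 23304 were called, against 1647 of 23304 with DESeq2 and 1801 of 33002 with a minimum of 1 read. There were 846 of 17422 with filterByExpr, 608 of 28149 with both strands and 784 of 15748 with the merged table. The correction gave 704 of 23304, the replicate block 1684 of 23304, and the fits with a library left out 8 to 1117. At an adjusted p below 0.05, 2513 of all genes were higher and 2054 lower, against 751 to 2701 and 511 to 3014 with a library left out and 3362 lower with the replicate block and the correction. The cause of these changes was not tested.

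The replicate numbers are shared between the groups, but same-numbered libraries correlated at 0.50, 0.43 and -0.28, and sh-control replicate 3 correlated best with sh-RREB1 replicate 2, so the numbers were not taken as pairs. With the replicate block 6 of the genes were called, 20 were higher and 12 lower, against 15.4% higher and 11.5% lower of all genes. With the block and the correction 2 were called, 17 higher and 17 lower, against 13.1% and 14.4% of all genes. Over all genes, 1684 were called with the block and 869 with the block and the correction. The summed level was not fitted with a block.

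Among named genes with no call in the main comparison, signs depended on the setting. With the correction, and with the correction and the replicate block, the log2 fold change was 0.19 and 0.19 for MRPL3, -0.58 and -0.57 for MRPL36, -0.64 and -0.65 for MRPL38, 0.055 and 0.055 for MRPS16, 0.20 and 0.21 for MRPS18C, -0.032 and -0.028 for MRPS24, -0.41 and -0.40 for MRPS34, 0.058 and 0.066 for MRPS36, and -0.080 and -0.085 for MRPS7. With filterByExpr it was 0.010 for MRPS16 and 0.027 for MRPS18C, with both strands 0.22 for MRPS18C and -0.033 for MRPS24, and with upper-quartile scaling -0.073 for MRPS24 and -0.076 for MRPS7. With a library left out, with or without the correction, it ranged from -0.14 to 0.22 for MRPL3, -0.75 to 0.49 for MRPL36, -0.74 to 0.39 for MRPL38, -0.032 to 2.01 for MRPL41, -0.28 to 0.019 for MRPL44, -0.14 to 0.11 for MRPS16, -0.26 to 0.059 for MRPS18B, -0.12 to 0.25 for MRPS18C, -0.28 to 0.043 for MRPS22, -0.34 to 0.23 for MRPS24, -0.47 to 1.06 for MRPS34, -0.32 to 0.11 for MRPS36 and -0.19 to 0.17 for MRPS7. In all, 480 of the values of named genes under alternatives kept their direction and side of the 0.05 threshold, 52 newly passed it, 60 no longer passed it and 86 changed sign. MRPL12 had no adjusted p in DESeq2 and was not tested with filterByExpr or without sh-RREB1 replicate 1.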
